A study of Mus musculus with 4 samples.

Results

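Gut-like epithelial cells of castrated mouse prostate tumours were the keratin-positive barcodes that carried several transcripts known from stomach, intestine and liver. A barcode, which stands for 1 droplet and in most cases 1 cell, had to hold at least 3000 unique molecular identifiers (UMIs, each counting 1 captured transcript), with at most 20% of them from mitochondrially encoded genes. It also needed at least 10 UMIs of Krt8 and Krt18 together, the keratins of simple epithelium, and at least 2 UMIs each of 3 or more of the 7 markers Reg1, Onecut2, Lgals4, Ttr, Cym, Akr1b7 and Lypd8. Of 33061 barcodes, 15930 passed the depth and mitochondrial limits, 8435 of these passed the keratin gate, and 819 met the marker rule. The remaining 7616 gated barcodes are called other epithelial barcodes. Because the cells were chosen by what they expressed, every level set against the other epithelial barcodes is a description and was not tested.

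The tumours came from PCSp and PSp mice, with 2 mice per genotype and 1 single-cell library per mouse. Mice of both genotypes carried the PB-Cre driver, the Spop mutant SpopF133V, the fluorescent Cre reporter mTmG and other engineered alleles in common, and PCSp mice carried floxed Chd1 alleles (Chd1L/L) as well. All mice were castrated by surgery at 9 months of age and their whole prostate tumours were taken 1 month later, so no comparison here includes an intact animal. PB-Cre is driven by a probasin promoter, which is active in prostate epithelium and responds to androgen. The comparison of genotypes addresses what CHD1, a chromatin remodeller, does in tumours with mutant SPOP, a substrate adaptor of a ubiquitin ligase.

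The markers have known roles in the digestive tract. Reg1 encodes a secreted C-type lectin of pancreas and gut, and its relatives Reg3b and Reg3g encode lectins that act against bacteria at the intestinal surface. Onecut2 encodes a homeodomain transcription factor of developing liver, pancreas and intestine, which in human prostate cancer is known as a regulator of androgen-independent growth. Lgals4 encodes galectin-4 of the gut lining, Lypd8 a membrane-anchored protein that keeps bacteria away from the colon wall, Cym the milk-clotting protease chymosin of the stomach, Ttr the thyroid hormone and retinol carrier transthyretin of the liver, and Akr1b7 an aldo-keto reductase known from intestine, adrenal gland and vas deferens.

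Gut-like cells were present in every mouse. They made up 244 of 2408 gated epithelial barcodes in PCSp mouse 1 (10.1%, exact Clopper-Pearson 95% interval 8.96% to 11.4%) and 245 of 2022 in PCSp mouse 2 (12.1%, 10.7% to 13.6%). In the PSp mice they made up 184 of 1839 (10.0%, 8.67% to 11.5%) in mouse 1 and 146 of 2166 (6.74%, 5.72% to 7.88%) in mouse 2. Both PCSp mice lay above both PSp mice, although PCSp mouse 1 and PSp mouse 1 differed by less than their counting intervals. The mean share was 11.1% ± 1.40 in PCSp mice and 8.37% ± 2.31 in PSp mice (SD, n = 2 each), a log2 ratio of 0.41 (two-sided exact permutation test, p = 0.333, the smallest value that 4 mice allow). As a share of all barcodes past the depth and mitochondrial limits the groups overlapped, with 5.00% and 6.26% in PCSp mice against 5.39% and 3.92% in PSp mice (exact permutation p = 0.667).

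The share depends on depth, since a deeper barcode meets the marker rule more easily. The median gut-like cell held 32176 and 27731 UMIs in PCSp mice and 31412 and 46398 UMIs in PSp mice, whereas the median other epithelial barcode held 19797 and 16901 UMIs in PCSp mice and 25106 and 23428 UMIs in PSp mice. When each barcode was thinned at random to 3000 UMIs before the gate and the marker rule were applied, the shares were 7.09% and 7.92% in PCSp mice against 5.25% and 2.00% in PSp mice. Both PCSp mice again lay above both PSp mice, with a log2 ratio of 1.05 and the same smallest possible exact permutation p of 0.333. Intervals and shares cover counting error only, and the exact permutation test cannot reach 0.05 with 2 mice per genotype.

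**Figure D1:**
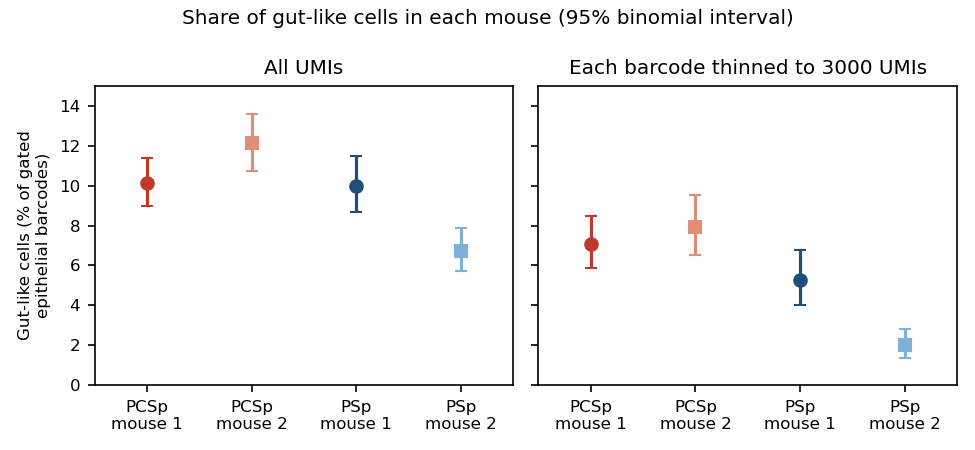
Share of gut-like cells among gated epithelial barcodes (percent) in each of the 4 mice, with exact 95% binomial intervals as bars, for all UMIs (left) and with every barcode thinned to 3000 UMIs (right). The lowest share in both panels is that of PSp mouse 2, at 6.74% and 2.00%.

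The 4 libraries held 6539 to 9656 barcodes and 66874620 to 90839725 UMIs each, and the UMIs summed over the gut-like cells of a mouse came to 7857993 to 10693011. Median mitochondrial shares were 5.20% and 4.55% in gut-like cells of PCSp mice and 6.36% and 6.77% in those of PSp mice. Among gut-like cells, 9.78% to 15.9% belonged to the barcodes of highest doublet score in their library, against 6.103% to 9.68% of other epithelial barcodes, and results without them are given where they differ. The leukocyte gene Ptprc reached 2 UMIs in 1 to 7 gut-like cells per mouse. Of 112 barcode sequences found in more than 1 library, 8 belonged to a gut-like cell.

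Among the 7 markers, Onecut2 and Lgals4 were the most widely carried. At 2 or more UMIs, Onecut2 was met by 94.5% of the 819 cells, Lgals4 by 92.7%, Reg1 by 81.6%, Akr1b7 by 73.1%, Lypd8 by 66.9%, Ttr by 59.8% and Cym by 40.7%. All 7 markers together were met by 170 cells, the commonest combination, followed by all but Cym in 108 cells and all but Lypd8 in 47.

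The number of markers met, which the rule used, is given as a description. Of the 8435 gated barcodes 6295 met no marker, 1085 met 1 and 236 met 2, and on the inside 155 met 3, 145 met 4, 158 met 5, 191 met 6 and 170 met all 7. The median depth was 19319 UMIs with no marker met, 28515 with 1, 28306 with 2, 18936 with 3 and 64465 with all 7, so depth did not climb evenly with the markers, although the cells with all 7 were the deepest.

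Reg1 was the marker that differed most between mice. Its level, in CPM (the UMIs of the gene scaled by all UMIs summed over the cells of a mouse), was 3486 and 6573 CPM in gut-like cells of PCSp mice and 6583 and 730.0 CPM in those of PSp mice, against 3.01 to 18.5 CPM in other epithelial barcodes. PSp mouse 2 was the low one, and the genotypes overlapped. In each mouse the top 10% of gut-like cells by Reg1 held 53.5% to 70.6% of its UMIs, whereas for Onecut2 the same share was 28.1% to 37.1%. Reg1 was not alone in this, since the share was 55.8% to 80.4% for Lypd8 and 63.7% to 76.8% for Cym.

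Onecut2 stood at 545 and 528 CPM in gut-like cells of PCSp mice and 433 and 341 CPM in those of PSp mice, against 5.03 to 14.8 CPM in other epithelial barcodes. Lgals4 ranged from 698 to 1091 CPM over the 4 mice, Lypd8 from 731 to 1020 CPM, Akr1b7 from 277 to 613 CPM, Ttr from 167 to 300.2 CPM and Cym from 66.7 to 226 CPM. Of these, Lypd8 had the highest level in other epithelial barcodes, at 26.3 to 45.2 CPM, and Cym and Ttr the lowest, under 1 CPM in every mouse.

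**Figure D2:**
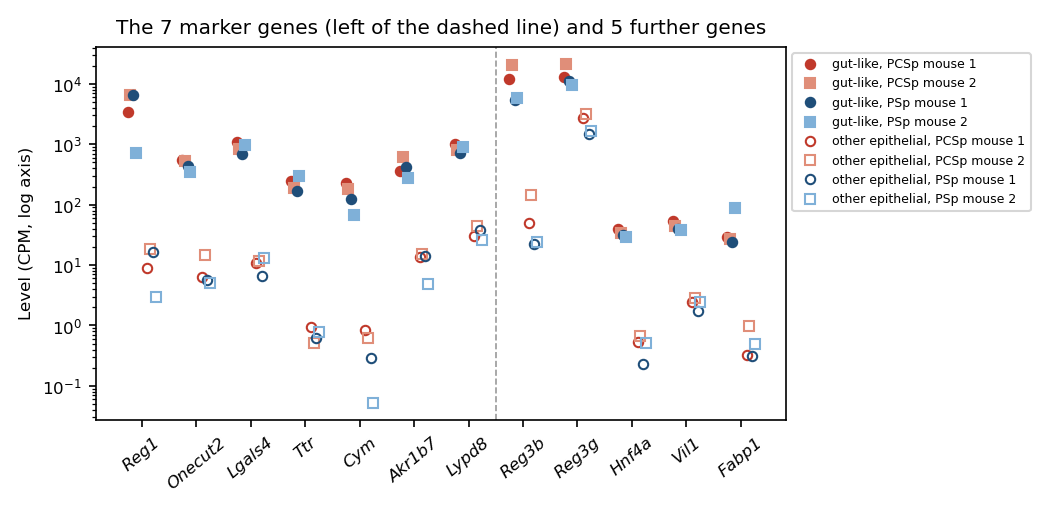
Levels (CPM, log axis) of the 7 markers, left of the dashed line, and of Reg3b, Reg3g, Hnf4a, Vil1 and Fabp1, right of it, in gut-like cells (filled) and other epithelial barcodes (open) of each mouse. Filled points lie above open points for every gene shown, and Reg1 of PSp mouse 2 is set apart at 730.0 CPM.

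Among genes of 50 CPM or more outside the rule, the largest ratio over other epithelial barcodes in the lowest mouse was that of a neighbour of Reg1. Reg3b, the antibacterial lectin, stood at 12175 and 20482 CPM in gut-like cells of PCSp mice and 5474 and 5920 CPM in those of PSp mice, against 49.4 and 146 CPM in other epithelial barcodes of PCSp mice and 22.2 and 23.8 CPM in those of PSp mice. All 4 mice had more in gut-like cells, 140.0-fold to 248-fold, with a mean log2 ratio of 7.74 ± 0.41 (SD, n = 4 mice). In barcodes of fibroblasts, which should lack it, Reg3b was at 10.7 to 69.2 CPM, a range that overlaps with that of other epithelial barcodes, so a low level there was not read as expression.

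Reg3g, the other lectin, was spread more widely. It stood at 12994 and 21359 CPM in gut-like cells of PCSp mice and 11073 and 9516 CPM in those of PSp mice, against 2697 and 3138 CPM in other epithelial barcodes of PCSp mice and 1459 and 1629 CPM in those of PSp mice. Fibroblast barcodes held 29.8 to 98.7 CPM of it. Reg2, Reg3a, Reg3d and Reg4 had few UMIs: of the 6 further Reg genes of mouse, 2 reached 5 CPM and both of these were at least 2-fold higher in gut-like cells of all 4 mice.

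Reg1, Reg3b and Reg3g lie on chromosome 6 of GRCm38 (GENCODE M21), at 78422711 to 78428667, 78370657 to 78373466 and 78466269 to 78468872. They are related in sequence, so the split of their reads rests on the authors' counting. Within gut-like cells thinned to 3000 UMIs, Reg3b and Reg3g were correlated across cells of 1 library (Spearman's rho 0.59 to 0.70 over the 4 mice, 146 to 245 cells each), and Reg1 and Reg3b less closely (0.25 to 0.43).

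The promoter windows of Reg1 and Reg3b are shown because both lectins were far higher in gut-like cells and most of these cells carry the transcription factor gene Onecut2. Onecut2 and Reg1 are both markers of the rule, so the selection itself favours cells that carry them. The windows run from 250 bases before to 50 bases after the RefSeq start (GRCm38.p6), 5′ to 3′ on the gene's strand, at chr6:78425733-78426032 on the plus strand for Reg1 and chr6:78370635-78370934 on the plus strand for Reg3b. Capitals mark ATTGAT, the core letters reported for ONECUT sites, or ATCAAT, its other strand.
Reg1: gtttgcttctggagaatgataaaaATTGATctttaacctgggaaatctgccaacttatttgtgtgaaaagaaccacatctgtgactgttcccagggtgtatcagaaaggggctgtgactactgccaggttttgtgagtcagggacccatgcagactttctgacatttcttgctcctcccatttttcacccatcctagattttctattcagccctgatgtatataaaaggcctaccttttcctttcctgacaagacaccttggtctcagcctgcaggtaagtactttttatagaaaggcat
Reg3b: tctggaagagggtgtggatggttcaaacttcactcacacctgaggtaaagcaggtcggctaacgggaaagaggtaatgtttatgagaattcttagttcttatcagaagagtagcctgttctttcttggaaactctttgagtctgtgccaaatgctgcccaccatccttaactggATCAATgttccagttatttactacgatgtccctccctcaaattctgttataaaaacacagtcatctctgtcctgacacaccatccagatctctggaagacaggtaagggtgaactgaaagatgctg
The letters begin 226 bases before the start in Reg1 and 76 bases before it in Reg3b. They were found on either strand in 2477 of 32851 RefSeq promoter windows of the same length (7.54%), in 2 of the 5 markers with a window and in 6 of 17 of the further higher genes described next, against 8.63% of genes with a window. A match is a run of letters and was not tested as a site, and whether Onecut2 acts on these genes was not tested.

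Across the genome, 10231 genes reached 5 CPM in gut-like cells or in other epithelial barcodes. Of these, 292 were at least 2-fold higher in gut-like cells of all 4 mice (2.85%) and 290 at least 2-fold lower (2.83%), and the median log2 ratio over all of them was -0.08. The 20 genes described next were those at 50 CPM or more, apart from the markers, whose ratio in the lowest of the 4 mice was largest, and the 10 lower genes were ranked likewise by the highest mouse. A gene uneven between mice, such as Klk1 with log2 ratios of 1.03 to 5.24, is therefore not among them. The 20 kept their direction in all 4 mice without the barcodes of highest doublet score (mean log2 ratios 3.003 to 7.83). They also kept it when barcodes were thinned to 3000 UMIs before the gate and marker rule were applied (0.65 to 4.69). The rule was then met by 113 and 103 barcodes in PCSp mice and 57 and 32 in PSp mice. Barcodes that passed the gate but no longer met the rule counted among the other epithelial barcodes. The thinned ratios therefore rest on a changed membership as well as on depth.

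Several of these 20 genes encode proteins of intestinal epithelium. Phgr1, a small histidine- and glycine-rich protein of gut epithelium, stood at 116 and 132 CPM in gut-like cells of PCSp mice and 42.8 and 67.8 CPM in those of PSp mice, against 0.511 to 1.21 CPM in other epithelial barcodes. Calml4, a calmodulin-like protein of the intestinal brush border, stood at 153 and 165 CPM in PCSp mice and 99.1 and 77.1 CPM in PSp mice, against 1.43 to 3.28 CPM. Calml4 is not restricted to gut-like cells, since fibroblast barcodes held 44.3 to 54.3 CPM of it. Ifi27l2b, of an interferon-inducible family, stood at 198 and 92.9 CPM in PCSp mice and 119 and 198 CPM in PSp mice, against 0.965 to 1.87 CPM.

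Other genes of the 20 belong to mucus and its surface. Fcgbp, which encodes a mucus-binding protein of goblet cells, stood at 303 and 181 CPM in gut-like cells of PCSp mice and 248 and 401 CPM in those of PSp mice, against 11.9 to 27.3 CPM in other epithelial barcodes. Muc13, a cell-surface mucin, stood at 64.2 and 98.2 CPM in PCSp mice and 50.8 and 44.2 CPM in PSp mice, against 3.70 to 4.93 CPM. Dmbt1, a secreted scavenger receptor that binds bacteria, stood at 133 and 299 CPM in PCSp mice and 138 and 291 CPM in PSp mice, against 3.31 to 12.2 CPM. Within each genotype the 2 mice differed in Dmbt1 by more than the genotypes did. Its median over gut-like cells was 0 in every mouse, and the top 10% of cells held 84.1% to 94.2% of its UMIs.

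Ctse, the aspartic protease cathepsin E of gastric epithelium, was another of the 20, at 71.9 and 78.4 CPM in gut-like cells of PCSp mice and 193 and 103 CPM in those of PSp mice, against 3.90 to 9.83 CPM in other epithelial barcodes. The metabolic genes were Rdh9, a retinol dehydrogenase (log2 ratio 4.82 ± 0.22), and Sult1c2, a sulfotransferase (3.42 ± 0.33; SD, n = 4 mice each). The others were 2210407C18Rik (5.08), Sema4g, a semaphorin (4.37), Gm15848 (4.35), Nostrin, which binds nitric oxide synthase (3.90), Tmem213 (3.88), the calcium-dependent kinase Camk1d (3.52), Sval1 (3.51), the tetraspanin relative Tm4sf4 (3.27), the Golgi protein Golm1 (2.995) and the gap junction protein Gjb1 (2.94). Sval1 was the least even of these, with 24.9 and 28.9 CPM in PCSp mice and 72.9 and 130.2 CPM in PSp mice.

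**Figure D3:**
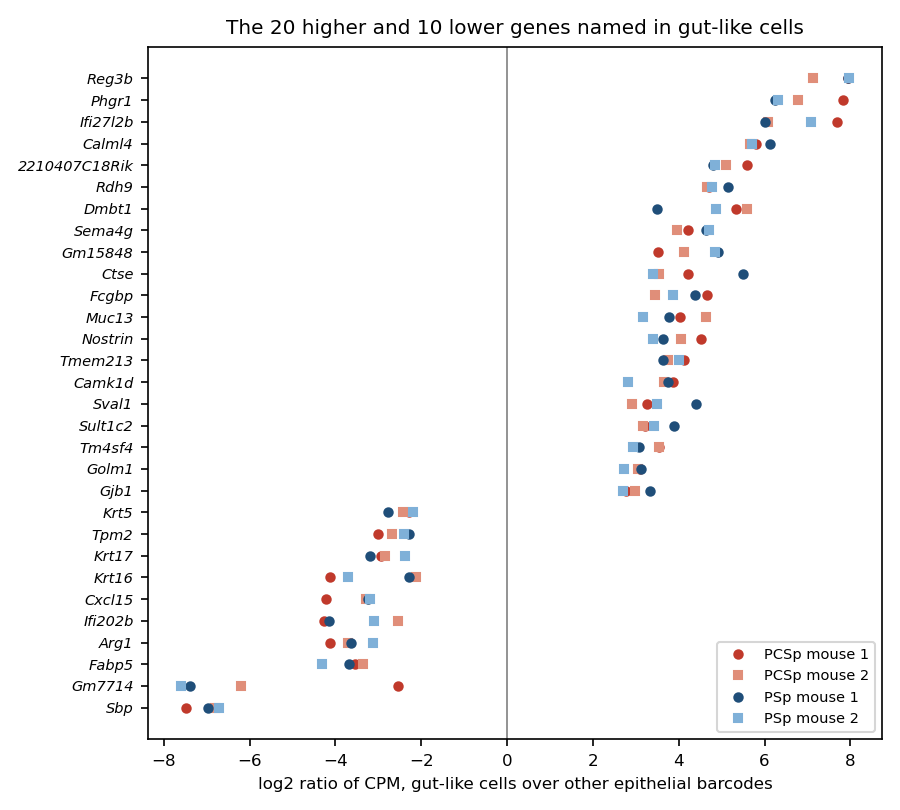
Log2 ratio of CPM in gut-like cells over other epithelial barcodes for the 20 higher and 10 lower genes described, with 1 point per mouse. All 20 genes on the right are positive in all 4 mice, and Gm7714 of PCSp mouse 1 lies apart from the other 3 mice.

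The gut marker lists were met in part. Of 20 absorptive enterocyte genes 8 reached 5 CPM, and 5 of these were at least 2-fold higher in gut-like cells of all 4 mice and none lower, with a median log2 ratio of 2.07. Vil1, the brush border protein villin, stood at 54.1 and 44.9 CPM in PCSp mice and 40.3 and 37.8 CPM in PSp mice, against 1.76 to 2.81 CPM in other epithelial barcodes. Fabp1, a fatty acid carrier of enterocytes and liver, stood at 28.9 and 27.5 CPM in PCSp mice and 23.8 and 89.5 CPM in PSp mice, against 0.315 to 0.982 CPM. It was highest in PSp mouse 2, the mouse lowest in Reg1.

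Cdh17, the liver-intestine cadherin, averaged 41.8 CPM in gut-like cells and 11.5 CPM in other epithelial barcodes, and the gut surface antigen Gpa33 averaged 51.2 CPM and 10.9 CPM. Cbr1, a carbonyl reductase, averaged 242 CPM, the glucose transporter gene Slc5a1 26.3 CPM and the aminopeptidase gene Anpep 22.4 CPM, none of them 2-fold higher or lower in all 4 mice. Of the 20 genes 8 were under 1 CPM in gut-like cells, with Alpi and Lct at 0 and Cdx2, the homeobox gene that defines intestine, at 0.0318 CPM. Cdx1, its relative, averaged 2.65 CPM. A single UMI of Cdx2 was counted over all 819 cells, so the defining intestinal factor was near 0, and "gut-like" here names the shared transcripts, not an intestinal identity.

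Goblet and gastric lists were met in part as well. Of the 7 goblet genes at 5 CPM, 3 were at least 2-fold higher in all 4 mice, and Tff3, a trefoil peptide of mucus, stood at 110 and 103 CPM in gut-like cells of PCSp mice and 234 and 436 CPM in those of PSp mice. Few cells carried it: the median was 0 in every mouse and the top 10% of cells held 84.8% to 98.8% of its UMIs. In PCSp mouse 2 the top 2 of 245 cells held 76.1%, and without them the level was 25.1 CPM. The gel-forming mucin Muc2 averaged 6.30 CPM and Zg16, a lectin of goblet granules, was at 0. Of the 4 gastric genes at 5 CPM, 3 were at least 2-fold higher: Ctse, Tff2, a trefoil peptide of stomach mucus (13.4 CPM on average, against 0.330 CPM), and Vsig1, an adhesion protein of gastric epithelium (26.5 CPM, against 3.41 CPM). Gkn1, Gkn2 and Atp4b, which define pit and parietal cells of the stomach, were at 0.

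Among transcription factors of endoderm, Hnf4a stood out. It stood at 39.9 and 33.6 CPM in gut-like cells of PCSp mice and 31.2 and 29.7 CPM in those of PSp mice, against 0.231 to 0.673 CPM in other epithelial barcodes and 0 in fibroblast barcodes. A UMI of this nuclear receptor of liver and gut was seen in 53.8% to 63.0% of gut-like cells, in 0.665% to 1.29% of other epithelial barcodes and in 0% of fibroblast barcodes, whose median depth was 7254 to 9700 UMIs. At 3000 UMIs per cell the shares were 5.98% to 15.2% and 0.248% to 0.508%.

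Of the 8 endoderm factors at 5 CPM, 3 were at least 2-fold higher in gut-like cells of all 4 mice. Besides Hnf4a these included its relative Hnf4g (11.4 CPM on average, against 4.27 CPM). Sox9, Klf4, Klf5 and Foxa1 were at similar levels in both, with mean log2 ratios of 0.41, -0.11, 0.44 and -0.23. The relatives Onecut1 and Onecut3 were at 0, as was Gata4. Of 12 liver secreted proteins 3 reached 5 CPM in either class, 1 at least 2-fold higher and 1 lower in all 4 mice. Ambp, the precursor of a protease inhibitor and a lipocalin, averaged 17.5 CPM against 0.283 CPM, the iron carrier gene Trf 2.66 CPM against 11.7 CPM, and the retinol carrier gene Rbp4 2.64 CPM against 6.27 CPM. The other 9 averaged 3.10 CPM or less in gut-like cells.

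Some prostate epithelial genes were also present. Of 12 luminal genes 8 reached 5 CPM, with a median log2 ratio of -0.92. In all 4 mice 4 of these were at least 2-fold lower in gut-like cells and none higher. The androgen receptor and its targets, also 8 of 12 at 5 CPM, had a median of -0.27. Of these 2 were at least 2-fold higher in all 4 mice and none lower. Klk1, 1 of these 2, rested on few cells. In PCSp mouse 2 the top 2 of 245 gut-like cells held 97.9% of its UMIs, and without them its level was 0.834 CPM. Hoxb13, the homeobox gene of prostate identity, averaged 109 CPM in gut-like cells and 54.1 CPM in other epithelial barcodes, and the androgen-regulated protease gene Tmprss2 averaged 180.0 CPM and 64.9 CPM. Secretory genes of the intact prostate were nearly absent, with Pbsn at 0.0935 CPM and Msmb at 0 in gut-like cells. Of 10 luminal progenitor genes, which mark castration-resistant luminal cells, none passed 2-fold in all 4 mice in either direction: the median log2 ratio was -0.17, and Krt19 averaged 4244 CPM against 2722 CPM.

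Basal genes were lower. Of 12 basal genes, 6 were at least 2-fold lower in gut-like cells of all 4 mice and none higher, with a median log2 ratio of -1.5004. Krt5, the basal keratin, stood at 96.0 and 107 CPM in PCSp mice and 105 and 76.4 CPM in PSp mice, against 471 and 575 CPM in other epithelial barcodes of PCSp mice and 725 and 350.2 CPM in those of PSp mice. Krt17 and Krt16, keratins of basal and stressed epithelium, were also among the 10 lower genes, at log2 ratios of -2.84 ± 0.35 and -3.06 ± 1.01.

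The rest of the 10 were of mixed kinds. Sbp, a spermine-binding secretion of the prostate, had a log2 ratio of -6.99 ± 0.35, and Gm7714, with -5.93 ± 2.34, was uneven because PCSp mouse 1 held 67.0 CPM and the other mice 0.350 to 1.64 CPM. Fabp5, a fatty acid carrier (-3.72), Arg1, the arginase of the urea cycle (-3.65), Ifi202b, of an interferon-inducible family (-3.51), Cxcl15, a chemokine known from lung (-3.49), and Tpm2, a tropomyosin (-2.60), completed them. The direction was kept in all 4 mice for all 10 genes with the highest doublet scores left out. After thinning, with the gate and rule applied again, it was kept for 7. Against the epithelial groups compared next it was kept for 6 and 2.

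Markers of other cell types were set beside these levels. The summed level of 7 fibroblast genes was 118 to 185 CPM in gut-like cells and 265 to 613 CPM in other epithelial barcodes. For 7 T and NK cell genes it was 23.03 to 39.7 CPM and 27.8 to 39.5 CPM, for 7 neutrophil genes 42.5 to 119 CPM and 46.6 to 141 CPM, and for 7 macrophage genes 24.5 to 152 CPM and 32.2 to 110.0 CPM. In PSp mouse 2 the macrophage sum was higher in gut-like cells (152 CPM, against 69.5 CPM in other epithelial barcodes), as was the neutrophil sum (92.5 CPM, against 67.9 CPM). No gene of these 4 lists that reached 5 CPM was at least 2-fold higher in gut-like cells of all 4 mice. The part of such RNA in the levels above was not tested. Of 14 seminal vesicle and Wolffian duct genes 12 were under 1 CPM in gut-like cells, among them 7 at 0.

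Both of the epithelial groups most like the gut-like cells shared some of these genes. These were the gated barcodes with at least 2 UMIs each of 2 or more of Ltf, Sftpd and Clca1 (923 besides the gut-like cells), and likewise of Upk1b, Atp4a and Mmp7 (634). Of the gut-like cells, 106 met the first of these rules and 184 met the other. All 20 named higher genes were higher in gut-like cells than in either group in all 4 mice, with mean log2 ratios of 2.499 to 7.34 and 1.81 to 9.05. Dmbt1 was nearly equal in 1 mouse, with a log2 ratio of 0.025 over the Upk1b, Atp4a and Mmp7 barcodes. That group held 1.17 to 136 CPM of Dmbt1 over the 4 mice. Reg3b averaged 71.7 CPM and 23.6 CPM in these groups, and Hnf4a 0.381 CPM and 0.882 CPM. Krt5 was not lower than in them: it averaged 41.4 CPM and 46.2 CPM there, against 96.2 CPM in gut-like cells.

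Mean levels of several genes were higher with more markers met. Reg3b averaged 24.6 CPM over the 4 mice in gated barcodes with no marker, 91.9 with 1, 538 with 2, 3865 with 3 and 15010.1 with 7. The mice were uneven: with 3 markers they ranged from 93.1 to 8108 CPM, PSp mouse 1 had 204 CPM with 2 markers and 93.1 CPM with 3, and PSp mouse 2 had 7261 CPM with 4 and 3107 CPM with 5. Hnf4a, which was no part of the rule, averaged 0.144 CPM with no marker, 5.89 with 2, 21.5 with 3 and 39.3 with 7. Single mice did not follow these means at each step: Hnf4a in PSp mouse 2 was at 31.0 CPM with 3 markers and 16.3 CPM with 4.

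Krt5 and Anxa1, a calcium-dependent membrane protein of inflamed and basal epithelium, averaged lower with 3 or more markers than with no marker. Krt5 averaged 621 CPM with no marker, 265 with 1, 170 with 2, 72.9 with 3 and 133 with 7. Anxa1 was higher with 1 marker than with none, at 4491 CPM against 3776 CPM. It averaged 3225 CPM with 2, 1598 with 3 and 754 with 7. Krt19, by contrast, averaged 2565 CPM with no marker, 4376 with 3 and 3882 with 7. Depth differs along this ordering as given above, and its part in these levels was not tested.

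**Figure D4:**
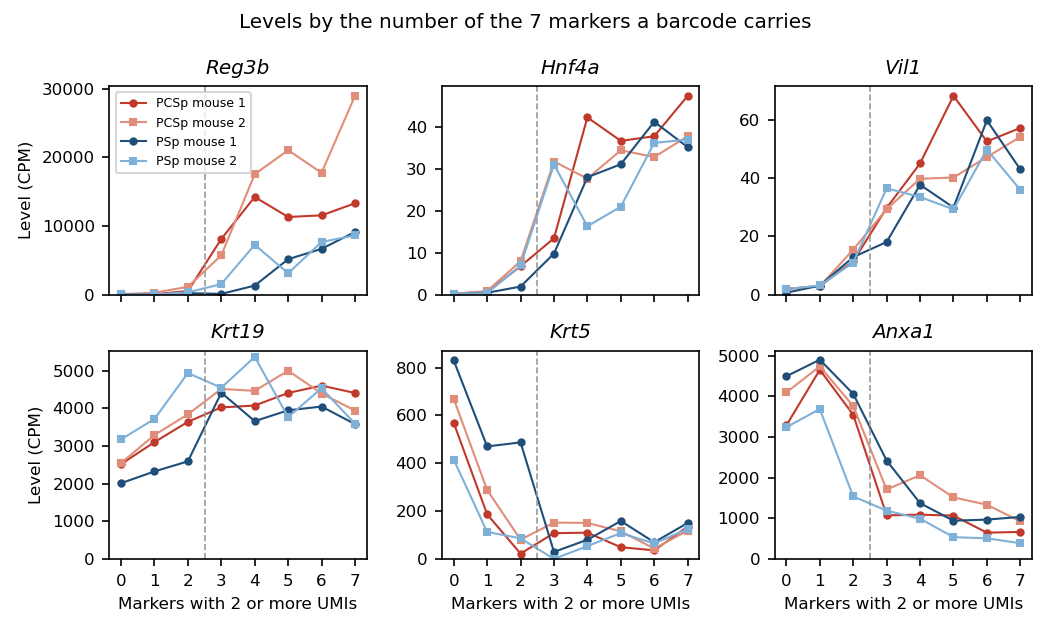
Levels (CPM) of Reg3b, Hnf4a, Vil1, Krt19, Krt5 and Anxa1 in gated epithelial barcodes by the number of the 7 markers they carry at 2 or more UMIs, with 1 line per mouse. The dashed line marks the rule of 3 markers, to the right of which Hnf4a averaged 21.5 to 39.3 CPM and to the left 0.144 to 5.89 CPM.

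Genotypes were compared within gut-like cells on the UMIs summed per mouse, with edgeR's quasi-likelihood test and Benjamini-Hochberg adjustment over all genes tested, and a gene is called at an adjusted p under 0.05. Chd1 itself, which is floxed in PCSp, stood at 42.2 and 39.4 CPM in gut-like cells of PCSp mice, against 76.4 and 56.2 CPM in those of PSp mice. The groups did not overlap, with a log2 fold change (PCSp over PSp) of -0.64 ± 0.15 (SE), and the gene was not called (edgeR adjusted p = 0.262). These are tags of the 3′ end, which may lie outside the deleted part, so the level does not check the deletion. Spop was also not called, at 0.20.

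Of 12587 genes tested in gut-like cells, 37 were called (0.294%), 8 higher in PCSp mice (0.0636%) and 29 lower (0.23%), and 1114 (8.85%) had an unadjusted p under 0.05. Of the 29 lower genes 9 were on the list of 22 interferon response genes, the antiviral programme that cells switch on after interferon binds its receptor. The number rests on which mice are included: without PSp mouse 2 edgeR called 7 genes, 6 of them among the 37 (2610528A11Rik, Ifit1, Ifit3, Ifit3b, Rsad2 and Apol9a). It called 103 without PSp mouse 1, 62 without PCSp mouse 2 and 48 without PCSp mouse 1. No called gene changed direction in these fits.

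Ifit3, which encodes an antiviral protein that binds foreign RNA complexes, had the smallest p. It stood at 47.8 and 48.5 CPM in gut-like cells of PCSp mice, against 252 and 229 CPM in those of PSp mice. The PCSp mice were close to each other and well under the PSp mice, with a log2 fold change of -2.26 ± 0.11 (edgeR adjusted p = 0.0024). Its neighbours on chromosome 19, Ifit1 and Ifit3b, fell by 2.34 and 2.06 on the log2 scale. Ifit1 stood at 74.6 and 67.9 CPM in PCSp mice, against 476 and 275 CPM in PSp mice (edgeR adjusted p = 0.0181). Ifit3 and Ifit3b are near-identical copies, so reads may be split between them.

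Rsad2, which encodes viperin, an enzyme that makes an antiviral nucleotide, stood at 48.0 and 38.3 CPM in PCSp mice, against 206 and 152 CPM in PSp mice. The groups did not overlap and the log2 fold change was -1.996 ± 0.16 (edgeR adjusted p = 0.011). Isg15, which encodes a ubiquitin-like modifier, stood at 204 and 197 CPM in PCSp mice, against 521 and 474 CPM in PSp mice, a log2 fold change of -1.26 ± 0.11 (edgeR adjusted p = 0.011). Per cell, the median Isg15 level was 73.5 and 49.0 CPM in gut-like cells of PCSp mice and 240 and 228 CPM in those of PSp mice. The genotypes did not overlap in this median either.

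The promoter windows of Isg15 and Ifit3 are shown because both genes fell in gut-like cells of PCSp mice. They run from 250 bases before to 50 bases after the RefSeq start (GRCm38.p6), at chr4:156200769-156201068 on the minus strand for Isg15 and chr19:34583279-34583578 on the plus strand for Ifit3. Capitals mark the core letters of the interferon-stimulated response element, which are GAAA, 2 bases of any kind and GAAA again, or on the other strand TTTC, 2 bases of any kind and TTTC.
Isg15: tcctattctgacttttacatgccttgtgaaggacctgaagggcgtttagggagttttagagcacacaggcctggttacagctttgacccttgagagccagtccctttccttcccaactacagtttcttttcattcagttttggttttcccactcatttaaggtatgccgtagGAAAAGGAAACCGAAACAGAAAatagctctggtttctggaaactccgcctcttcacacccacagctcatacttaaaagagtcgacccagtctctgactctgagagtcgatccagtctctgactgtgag
Ifit3: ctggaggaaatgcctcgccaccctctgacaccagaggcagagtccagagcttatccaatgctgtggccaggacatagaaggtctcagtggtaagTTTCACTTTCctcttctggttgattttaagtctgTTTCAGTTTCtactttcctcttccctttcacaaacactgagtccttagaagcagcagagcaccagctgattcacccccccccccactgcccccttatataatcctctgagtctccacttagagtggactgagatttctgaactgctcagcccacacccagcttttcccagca
In Isg15 these letters begin 78, 72 and 66 bases before the start and overlap each other, and in Ifit3 they begin 156 and 122 bases before it, on the other strand. Of 32851 windows of this length, 1131 hold them on either strand (3.44%). Of the 29 lower genes 22 had a window and 15 of these held the letters, of the 8 higher genes 6 had a window and 1 held them, and 3.99% of all genes with a window did. The matches were not tested as sites.

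Over the whole interferon list, all 21 genes tested were lower in gut-like cells of PCSp mice, 9 called and 20 with an unadjusted p under 0.05, with a median log2 fold change of -0.99 against a median of -0.0024 over all genes. The genotypes did not overlap in 20 of the 21, all with PCSp lower, which held for 27% of all genes. The 9 called were Ifit1, Ifit3, Rsad2, Isg15, the 2′-5′-oligoadenylate synthetases Oas2 (-1.14) and Oas3 (-1.40), the ISG15 protease Usp18 (-1.28), the transcription factor Irf7 (-0.99) and Ifi44 (-1.31). The summed T and NK cell genes overlapped between genotypes in gut-like cells, at 28.1 and 37.2 CPM in PCSp mice against 39.7 and 23.03 CPM in PSp mice, as did the macrophage genes, at 48.6 and 25.9 CPM against 24.5 and 152 CPM. The median mitochondrial share was lower in both PCSp mice, as given above, and its part in these results was not tested.

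Other epithelial barcodes come from the same 4 mice, and their values are given side by side. All 21 interferon genes were lower in PCSp mice there too, with a median of -0.74 and none called by edgeR. The genotypes did not overlap in all 21, with PCSp lower, which held for 15.1% of all genes there. By edgeR 21 had an unadjusted p under 0.05, as had 7.98% of all genes in either direction. Isg15 there stood at 627 and 439 CPM in PCSp mice, against 888 and 994 CPM in PSp mice, and Ifit3 at 261 and 156 CPM, against 384 and 471 CPM. Both genes were lower in gut-like cells than in other epithelial barcodes of each mouse. No gene of the list passed the test of the difference between the cell classes, with Rsad2 nearest (difference -1.06 ± 0.16, edgeR adjusted p = 0.405).

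Further called genes that fell are known from immune and antiviral responses. H2-Q7, a non-classical class I gene, stood at 28.3 and 22.1 CPM in PCSp mice, against 94.0 and 73.3 CPM in PSp mice, with a log2 fold change of -1.67 (edgeR adjusted p = 0.0134). Its close copy H2-Q6 was at -1.86 and H2-T22 at -0.81. Apol9a (-1.66) and Apol9b (-1.49) are close copies too, as are Trim30a (-1.38) and Trim30d (-1.89), so their single values are uncertain. Trim12a (-1.64) and Trim34a (-1.73), antiviral TRIM genes, lie with both Trim30 genes between 104244457 and 104507849 on chromosome 7. Ddx60 (-1.11) and Dhx58 (-1.11), which encode helicases of RNA sensing, Oasl2 (-1.20) and Rtp4 (-0.93) were called as well.

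Among called genes, the largest fall was in 2610528A11Rik, which stood at 9.45 and 6.67 CPM in gut-like cells of PCSp mice, against 62.4 and 86.8 CPM in those of PSp mice. The log2 fold change was -3.15 ± 0.22 (edgeR adjusted p = 0.00655), and the groups did not overlap. Hsd11b2, which inactivates glucocorticoids, stood at 22.6 and 17.1 CPM in PCSp mice, against 68.8 and 122 CPM in PSp mice (log2 fold change -2.21 ± 0.28, edgeR adjusted p = 0.041). It lost the call without PSp mouse 2 (adjusted p = 0.0703).

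Msln, the surface protein mesothelin, stood at 14.7 and 17.2 CPM in PCSp mice, against 51.4 and 51.9 CPM in PSp mice (log2 fold change -1.64 ± 0.15, edgeR adjusted p = 0.011). Cdkn2a, which encodes the cell cycle inhibitors p16 and p19 ARF, stood at 6.17 and 4.45 CPM in PCSp mice, against 23.01 and 20.2 CPM in PSp mice (-1.96 ± 0.19, edgeR adjusted p = 0.0154). It was the 1 called gene among 15 of p53 and senescence, where 0.294% of all genes were called. Arg1 (-1.37) and Ocel1 (-1.36) completed the 29. Without PSp mouse 2, the adjusted p was 0.105 for Msln and 0.09 for Cdkn2a.

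Among the 8 genes that rose in gut-like cells of PCSp mice, Gm42031 had the largest change of those at 20 CPM or more. This long noncoding RNA of chromosome 8 stood at 226 and 153 CPM in PCSp mice, against 30.8 and 25.2 CPM in PSp mice. The log2 fold change was 2.81 ± 0.19 (edgeR adjusted p = 0.00594, and 0.0703 without PSp mouse 2). Other epithelial barcodes held similar levels, 237 and 149 CPM in PCSp mice, against 28.1 and 26.6 CPM in PSp mice.

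Tbpl1, a TATA-binding protein relative of the transcription machinery, stood at 58.3 and 46.0 CPM in gut-like cells of PCSp mice, against 26.8 and 23.7 CPM in those of PSp mice (log2 fold change 1.10 ± 0.14, edgeR adjusted p = 0.0348). Slc16a12, which encodes a creatine transporter, stood at 40.4 and 37.5 CPM, against 21.8 and 20.9 CPM (0.92 ± 0.12, edgeR adjusted p = 0.0433). Wdr89 (0.83), Wdfy1 (1.58), Sult1b1, a sulfotransferase of gut and liver (1.74), Gm46620 (3.22) and Gm5485 (3.25) were the others. Each of the 8 lost its call without PSp mouse 2, where no gene was called higher. Ugt2b35, which encodes a glucuronosyltransferase, stood at 38.4 and 39.9 CPM in PCSp mice, against 21.7 and 18.2 CPM in PSp mice, and missed the threshold (1.03 ± 0.14, edgeR adjusted p = 0.0515, and DESeq2 adjusted p = 0.00117).

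**Figure D5:**
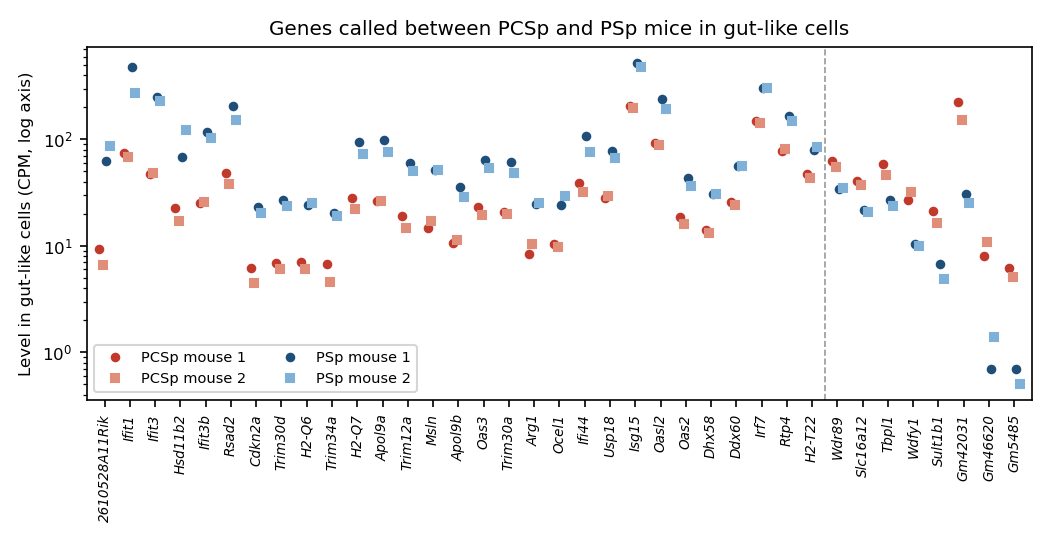
Levels (CPM, log axis) in gut-like cells of the 2 PCSp mice and the 2 PSp mice for the 29 genes called lower, left of the dashed line, and the 8 called higher in PCSp mice, right of it. The genotypes do not overlap in any of the 37 genes, which were picked for a small edgeR adjusted p. Among all genes tested, both PCSp mice lay above both PSp mice in 14% and below them in 27%.

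The 11 listed genes of MHC class I presentation, which display peptides to T cells, were lower in direction but not called. H2-Q7, H2-Q6 and H2-T22, called lower as given above, were not on this list. All 11 had PCSp mice below PSp mice, with a median log2 fold change of -0.64 and 11 unadjusted p under 0.05 by edgeR, where both PCSp mice lay lower in 27% of all genes and 8.85% had such a p in either direction. B2m, the shared light chain, stood at 583 and 483 CPM in PCSp mice, against 1055 and 869 CPM in PSp mice (-0.80 ± 0.14, edgeR adjusted p = 0.11). In other epithelial barcodes the median was -0.41.

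None of the 20 cholesterol biosynthesis genes was called in gut-like cells. By edgeR 19 of them had a positive log2 fold change, as had 6242 of all 12587 genes tested, and the median was 0.47. Of the 19, 8 had an unadjusted p under 0.05 by edgeR (8.85% of all genes in either direction). Hmgcs1, the synthase early in the pathway, stood at 64.5 and 74.0 CPM in PCSp mice, against 45.7 and 40.5 CPM in PSp mice (0.74 ± 0.13, edgeR adjusted p = 0.127). The genotypes did not overlap. Sqle was at 0.78 and Idi1 at 0.92, neither of them called.

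In other epithelial barcodes 10 of the 20 were higher and the median was -0.0034. The difference between the classes was positive for all 20 genes, with a median of 0.49, and none passed its test. Over all genes tested it was positive for 7821 of 15319. Idi1, an isomerase of the pathway, had a difference of 0.91 ± 0.13 (edgeR adjusted p = 0.35) and Sqle, the squalene epoxidase, 0.73 ± 0.12 (adjusted p = 0.405). Of 13 genes of SREBP2 control and cholesterol uptake 7 were higher and none called, with Srebf2 itself at 0.23.

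Lectin, gut and mucus genes of the gut-like cells were not called between genotypes by edgeR. The 7 markers chose the cells, so their levels are given above with no test. Reg3b, with PCSp mice above PSp mice, had a log2 fold change of 1.59 ± 0.27 (edgeR adjusted p = 0.101), and Reg3g 0.81 ± 0.26 (adjusted p = 0.45). Hnf4a was at 0.33 and Phgr1 at 1.22 (adjusted p = 0.131). Tff3, carried by few cells as given above, was at -1.60 ± 0.27 (adjusted p = 0.108), and of 9 goblet genes tested 8 were lower and none called. These calls depend on the setting: DESeq2 called both Reg3b (adjusted p = 0.0189) and Tff3 (adjusted p = 0.0361), and edgeR called Reg3b without PCSp mouse 1 (adjusted p = 0.0171) and Tff3 without PSp mouse 1 (adjusted p = 0.000628). Over all settings the adjusted p ran from 1.4e-21, with no filter on low counts, to 0.375 for Reg3b, and from 1.6e-27 to 0.251 for Tff3.

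Klk1, a tissue kallikrein regulated by androgen, stood at 10.0 and 39.7 CPM in gut-like cells of PCSp mice, against 282 and 321 CPM in those of PSp mice, with a log2 fold change of -3.55 ± 0.55 that was not called (edgeR adjusted p = 0.0796). Few cells held it: 1 cell accounted for 319 of 339 UMIs in PCSp mouse 2 and 1 cell for 1306 of 2415 UMIs in PSp mouse 1. It was called by DESeq2 (adjusted p = 0.0231) and by edgeR when PCSp mouse 1, PCSp mouse 2 or PSp mouse 1 was left out, and its adjusted p ran from 6.02e-116, with no filter on low counts, to 0.305 over all settings. Of 23 cell cycle genes 9 were higher and 14 lower between genotypes, of 10 endoderm transcription factors 6 and 4, and of 10 enterocyte genes 7 and 3, with none called.

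In the other epithelial barcodes edgeR called 2 of 16063 genes (0.0125%), and 1282 had an unadjusted p below 0.05 (7.98%). Both, Pate4 and Pate6, which belong to a family of small secreted proteins of the male tract, were lower in PCSp mice. Single barcodes carried Pate4: 1 held 3741 of 4080 UMIs in PSp mouse 1 and 1 held 4314 of 5418 in PSp mouse 2, and without the top 1% of barcodes these mice were at 0.531 and 0.779 CPM. The difference of the genotype effect between gut-like cells and other epithelial barcodes was called for 2 of 15319 genes (0.0131%), and 938 had an unadjusted p below 0.05 (6.12%). These were Pate6 and Dmkn, which encodes the secreted epidermal protein dermokine.

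Dmkn stood at 20.8 and 49.98 CPM in gut-like cells of PCSp mice and 24.1 and 8.91 CPM in those of PSp mice. In other epithelial barcodes it stood at 31.2 and 80.9 CPM in PCSp mice and 113 and 42.7 CPM in PSp mice. The genotypes overlapped in both classes, and the difference of the effects was 1.70 ± 0.11 (edgeR adjusted p = 0.00605, and 0.0814 without PCSp mouse 2). None of the 37 genes called in gut-like cells passed this test of the difference, the smallest adjusted p among them being 0.291 for Hsd11b2, so none of their changes was shown to be particular to gut-like cells.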

How the data were processed

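Whole prostate tumours of 4 castrated mice were dissociated with collagenase A and trypsin and profiled with 10x 3′ chemistry, per the labels' protocols. The authors deposited raw UMI counts per gene and barcode for each mouse, made with Cell Ranger 6.1.2 on mm10 per the submitters' processing notes. The deposited barcodes hold at least 500 UMIs, and further filtering by the authors is not given in the sources used here. The barcodes were filtered, gated and marker-selected as described, and counts were summed per mouse.

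Genotypes were compared on the sums with edgeR 4.0.16 (quasi-likelihood test, TMM factors, genes kept by filterByExpr, Benjamini-Hochberg adjustment over all genes tested) in R 4.3.3. The difference between cell classes was fitted as an interaction with mouse as a block, and DESeq2 1.42.0 was an alternative. The fits were also run on simulated sums. These held no effect shared by the cells of 1 mouse, so they do not vouch for the fits to the 4 mice. Each replicate is 1 mouse, and with 2 mice per genotype the residual degrees of freedom were 2. A fold between cell classes used a floor of 3 counts per library where a sum was lower.

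No doublets were removed in the values reported. Scrublet's automatic threshold marked 0% to 0.829% of barcodes and was not used, so an alternative left out the highest scores, at a rate set by the number of barcodes in the library. Named genes were the 20 highest and 10 lowest ratios at 50 CPM or more, ranked by the mouse nearest to no difference, and up to 12 called genes each way at 20 CPM or more, where the genotypes did not overlap. Directions with fewer than 5 calls were filled by smallest p, and called genes under 20 CPM and listed genes were added. Of 32285 gene IDs 32158 were in GENCODE M21. The cells, their markers and the gene lists were chosen with earlier results of these data known, and support nothing independently. Some genes and alleles are not reported here.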

Additional observations from a re-analysis of the deposited data

Results flagged for a closer look

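The genotype effect of Pate6 differed between the cell classes by 4.67 ± 0.20 on the log2 scale (gut-like cells minus other epithelial barcodes, edgeR interaction test, adjusted p = 0.000491). Pate6 stood at 8.98 and 7.49 CPM in gut-like cells of PCSp mice and 10.05 and 8.14 CPM in those of PSp mice. In other epithelial barcodes it stood at 2.04 and 1.88 CPM in PCSp mice and 50.5 and 53.1 CPM in PSp mice. The top 1% of other epithelial barcodes held 98.4% and 98.9% of the Pate6 UMIs in the PSp mice, and without them the levels were 0.384 and 0.426 CPM in PCSp mice and 0.831 and 0.571 CPM in PSp mice. Pate genes are related in sequence.

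Dmkn was the other gene whose genotype effect differed between the cell classes, by 1.70 (edgeR interaction test, adjusted p = 0.00605), with the levels given above.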

How the results depend on the processing

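The share of gut-like cells kept its direction in every setting tried, with a log2 ratio of 0.15 to 0.72 when a mouse was left out and 0.27 to 1.05 in the other settings. The exact permutation test of a share cannot reach 0.05 with 4 mice. Against 37 genes called in gut-like cells, DESeq2 called 122, edgeR without a filter on low counts 566, and edgeR without the highest doublet scores 63, each including all 37. Leaving out 1 mouse gave 7 to 103 calls. For other epithelial barcodes, against 2, the count was 79 with no filter, 1 without the highest doublet scores and 0 to 81 with a mouse left out. The 0 came without PCSp mouse 1, with 601 genes at an unadjusted p under 0.05 by edgeR. For the difference between classes, against 2, it was 115 with no filter and 2 to 8 with a mouse left out. The causes were not tested, beyond the fewer samples and other genes that these settings enter. Without TMM factors 29 genes were called, with 4 of 7 markers required 32, with 146 cells per mouse 38, and 37 with Reg1, Reg3b and Reg3g out of the totals, a setting chosen after seeing the data.

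Directions of uncalled genotype values turned for Fcgbp (0.025 without PSp mouse 2, range -0.74 to 0.025) and Dmbt1. Dmbt1 was at -0.083 with 4 of 7 markers, -0.69 without PCSp mouse 2 and -0.38 without PSp mouse 1 (range -0.69 to 0.73). For the markers, which chose the cells, log2 fold changes are a description with no test. That of Reg1 turned to -0.05 without PCSp mouse 2 and -0.30 without PSp mouse 2 (range -0.30 to 2.84). That of Ttr turned to 0.08 and 0.45 in the same fits (range -0.43 to 0.45). Ratios turned for Gm7714 (0.27) and Krt5 (1.22) against the Ltf, Sftpd and Clca1 barcodes, and for Tpm2 (0.31), Krt5 (1.09) and Krt16 (0.34) against the Upk1b, Atp4a and Mmp7 barcodes. No paired analysis was possible because the replicate numbers were given in accession order and pair no mice. Fits with 1 mouse in a genotype assume that it varies like the others. Depth limits what can be said of genes of a few UMIs per mouse.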

Other observations

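Single genes of other groups also differed between gut-like cells and other epithelial barcodes, as descriptions with no test. Among tight junction genes, Cldn2, which encodes a pore-forming claudin, stood at 29.3 and 37.1 CPM in gut-like cells of PCSp mice and 14.7 and 12.7 CPM in those of PSp mice, against 0.0630 to 0.505 CPM in other epithelial barcodes. Cldn8 averaged 58.1 CPM against 16.5 CPM, whereas Cldn1 averaged 11.2 CPM against 56.8 CPM. Of 7 claudins at 5 CPM, 2 were at least 2-fold higher in all 4 mice and 1 was lower.

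Of 10 acute phase and iron genes 1 was at least 2-fold higher in gut-like cells of all 4 mice and 4 were lower. The higher one was complement factor B, Cfb, at 74.9 and 81.0 CPM in PCSp mice and 94.3 and 89.3 CPM in PSp mice, against 12.4 to 16.0 CPM in other epithelial barcodes. The copper carrier gene Cp averaged 53.9 CPM against 219 CPM, and the haptoglobin gene Hp 12.3 CPM against 53.3 CPM. Kcne3, a potassium channel subunit of intestinal secretion, averaged 36.4 CPM against 5.63 CPM, and S100b 10.9 CPM against 0.326 CPM. Among 8 transport and ion channel genes at 5 CPM the median log2 ratio was -0.34. In all 4 mice 1 of them was at least 2-fold higher and 2 were lower. The cell cycle inhibitor gene Cdkn1a averaged 629 CPM against 398 CPM, whereas the 15 p53 and senescence genes had a median of -0.40. None of these 15 was at least 2-fold higher in all 4 mice and 1 was lower.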
